A study of Mus musculus with 11 samples.

Results

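Doxorubicin was compared with buffer in tumours grown in hosts without Fpr1, the formyl peptide receptor 1 gene, over 5 of the 11 tumour arrays of the series. The members were chosen by their labels: genotype Fpr1-/- with treatment DX (2 arrays, all that the series holds) and genotype Fpr1-/- with treatment PBS (3 arrays). These groups are called KO DX and KO PBS, with DX for doxorubicin and PBS for phosphate-buffered saline, the carrier of the drug. The hosts were C57BL/6 mice aged 10 to 12 weeks with subcutaneous fibrosarcomas, a connective tissue tumour. At a tumour surface of 25 to 45 mm2, DX was injected into the tumour at 2.9 mg/kg in 50 µL PBS, and tumours were taken 2 days later for total RNA. The other 6 arrays came from wild-type (WT) hosts of the same strain and age, 3 with DX and 3 with PBS, and serve here for the spread and for the test of whether the KO change differed from the WT change. All 11 samples shared host strain, tumour type and day of harvest. The source names carry a tumour number that rises by 1 from 205 to 215 over the samples, and the labels do not say whether the tumours were 1 line, whether the tumour cells themselves carried Fpr1, or whether each array was 1 animal or a pool. The p-values therefore measure only the spread between these samples, which may be technical.

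Doxorubicin is an anthracycline that blocks topoisomerase II and breaks DNA, which turns on the p53 pathway and its arrest gene Cdkn1a. Dying cells also release signals, among them type I interferon and annexin A1, a ligand of Fpr1, and the receptor guides myeloid cells toward such dying cells. Neutrophils are drawn into tissue by CXC chemokines that carry the ELR motif, such as Cxcl1, Cxcl2 and Ppbp, and monocytes and lymphocytes mainly by CC chemokines and by the interferon-induced Cxcl9 and Cxcl10. The comparison addresses which of these responses can be measured in a host that lacks the receptor.

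All levels below are log2 normalised intensities, and all changes are log2 differences of KO DX minus KO PBS, with the standard error (SE) of limma, a linear model with a shared estimate of the spread over the 4 groups. The 5 KO arrays were of similar depth, with median raw intensities of 118 to 169 and between 17119 and 18221 of 45281 probes detected, and KO PBS 2 was the dimmest. Fpr1 had no named probe and was not analysed here, so the knockout itself was not checked on these arrays. The arrays lay on 5 BeadChips, the glass slides on which several samples are scanned together. KO DX 1, KO DX 2 and WT PBS 2 were together on chip 4, whereas the 3 KO PBS arrays lay on chips 1, 2 and 5. No chip held a KO DX and a KO PBS array, so there is no within-chip value of the change, and the effect of chip 4 can be estimated through WT PBS 2 alone. A value "with the chip as a block" below comes from that fit, and WT PBS 2 is given beside some of the genes. Col1a1, a fibrillar collagen chain that fibroblasts of tumour and host alike make, lay at 12.35 and 11.88 on the KO DX arrays and at 12.96, 12.76 and 12.46 on the KO PBS arrays.

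No gene passed the threshold of an adjusted p under 0.05 among 10623 genes (0% called), while 569 (5.36%) lay under 0.05 before adjustment, 335 of them higher with DX (3.15%) and 234 lower (2.2%). The KO DX arrays lay wholly above the KO PBS arrays for 1412 genes (13.3%) and wholly below them for 1459 (13.7%), and the change was above 0 for 48.7% of genes and below 0 for 51.3%. The median of all genes was -0.0063. The smallest adjusted p in limma, 0.0726, was shared by 5 genes, the chemokine genes Ppbp, Cxcl2 and Ccl4, the stefin gene Csta3 and the preadipocyte gene Dlk1, and Cdkn1a followed at 0.0783. Of these, Csta3 was detected on the KO DX arrays alone and passed the probe filter only through them. The median SE of a change was 0.20, and the median 95% interval reached 0.44 to each side, so changes smaller than that could not be told from 0 for most genes. Of genes at least 2-fold apart without overlap, 33 were higher and 14 were lower with DX. The lowest change of all genes belonged to Retnla, which codes for a resistin-like protein of alternatively activated macrophages and is named here after its values were seen. It was at 6.20 and 5.99 on the KO DX arrays and at 8.11, 7.51 and 8.74 on the KO PBS arrays, without overlap. The change of -2.02 had an SE of 0.99, an unadjusted p in limma of 0.065 and, with the chip as a block, a size of -4.26.

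**Figure D1:**
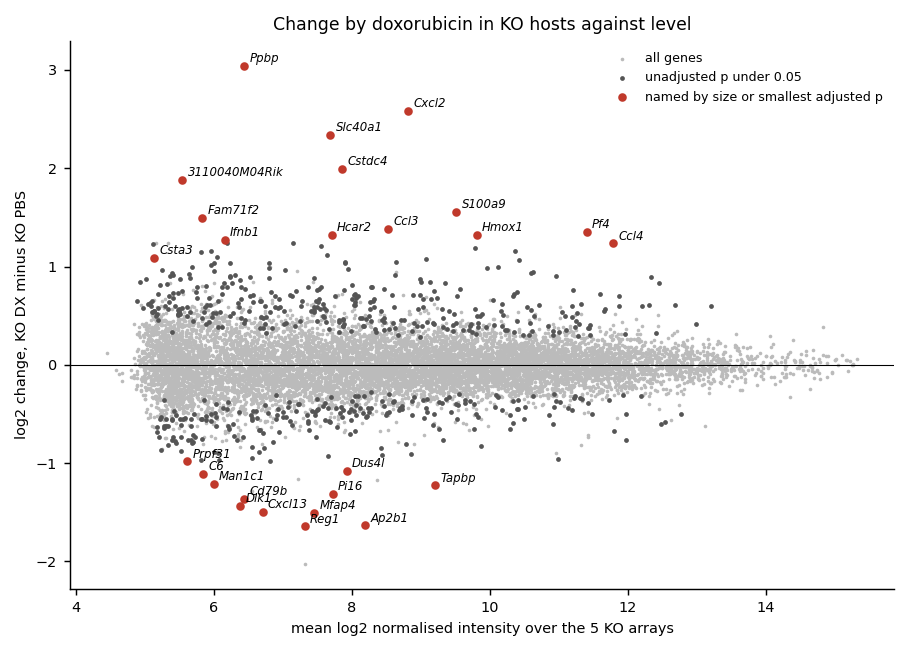
Change of every gene, KO DX minus KO PBS (y axis, log2), against its mean level over the 5 KO arrays (x axis, log2 normalised intensity); grey points are all genes, dark points those at unadjusted p under 0.05, and red points the genes named by size or by the smallest adjusted p. Ppbp at 3.04 and Cxcl2 at 2.59 stand highest, and the lowest red points, Reg1 and Ap2b1, stand at -1.64 and -1.63. The lowest point of all is Retnla at -2.02, and Csta3, 3110040M04Rik, C6 and Prpf31 have fitted values although 1 of their groups was detected on no array.

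In the fit without a block, the largest 2 changes belonged to Ppbp and Cxcl2, genes of a stretch of chromosome 5 that codes for CXC chemokines. Ppbp, Pf4, Cxcl1 and Cxcl2 were measured there, while Cxcl5, Cxcl3 and Cxcl15 of the same stretch were not among the measured genes. Their promoters are shown because neighbours in this stretch differed widely in their change. Each line runs 5′ to 3′ on the plus strand of chromosome 5 in GRCm38.p6 as a window of 300 bases around the gene start, taken from RefSeq. Capitals mark 2 motifs: the NF-κB core (GGG, any 2 bases, then TTTCC), searched on both strands, and TATAAA, the TATA box, searched on the given strand.
Ppbp, chr5:90768268-90768567: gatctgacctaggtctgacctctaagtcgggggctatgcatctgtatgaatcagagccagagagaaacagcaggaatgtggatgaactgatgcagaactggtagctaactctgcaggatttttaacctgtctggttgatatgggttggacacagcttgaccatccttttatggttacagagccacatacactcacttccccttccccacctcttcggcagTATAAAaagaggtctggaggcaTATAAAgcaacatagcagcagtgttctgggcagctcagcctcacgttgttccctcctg
Pf4, chr5:90772185-90772484: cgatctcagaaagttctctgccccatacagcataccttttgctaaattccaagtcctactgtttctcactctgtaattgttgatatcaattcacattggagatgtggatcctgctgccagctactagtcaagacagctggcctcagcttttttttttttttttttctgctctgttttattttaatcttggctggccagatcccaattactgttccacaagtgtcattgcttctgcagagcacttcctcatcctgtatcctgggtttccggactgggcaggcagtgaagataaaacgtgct
Cxcl1, chr5:90890995-90891294: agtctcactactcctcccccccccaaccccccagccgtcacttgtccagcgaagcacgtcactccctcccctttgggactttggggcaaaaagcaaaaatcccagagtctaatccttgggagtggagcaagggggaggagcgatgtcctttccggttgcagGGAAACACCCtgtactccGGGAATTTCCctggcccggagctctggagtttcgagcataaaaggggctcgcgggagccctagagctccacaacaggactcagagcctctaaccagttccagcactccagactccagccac
Cxcl2, chr5:90903649-90903948: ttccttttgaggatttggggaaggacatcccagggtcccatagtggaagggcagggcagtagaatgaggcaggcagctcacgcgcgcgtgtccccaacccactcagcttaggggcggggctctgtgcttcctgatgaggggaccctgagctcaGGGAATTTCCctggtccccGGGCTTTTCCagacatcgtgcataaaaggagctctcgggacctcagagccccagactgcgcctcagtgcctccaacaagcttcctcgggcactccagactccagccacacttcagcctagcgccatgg
The NF-κB core was present at 71 and 89 bases before the start of Cxcl1 and at 78 and 97 bases before that of Cxcl2, and it is in 1.63% of 32817 promoters of this length. The Ppbp window held TATAAA at 8 and 30 bases before the start, a motif in 8.32% of promoters. The Pf4 window held neither motif. A match is a string of letters and says nothing of whether a factor was bound.

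Ppbp, which gives rise to the neutrophil attractant CXCL7, lay at 9.13 and 7.39 on the KO DX arrays and at 5.37, 5.42 and 4.86 on the KO PBS arrays. Both KO DX arrays were far above all 3 KO PBS arrays although KO DX 1 was well above KO DX 2, and Ppbp was detected on only 1 of the 3 KO PBS arrays. The change was 3.04 (SE 0.39, adjusted p in limma 0.0726). WT PBS 2, the PBS array of the same chip, lay at 4.77, below every KO PBS array. Cxcl2, an ELR chemokine made by macrophages and other stimulated cells, lay at 10.55 and 10.18 against 8.10, 7.25 and 7.99, a change of 2.59 (SE 0.39, adjusted p in limma 0.0726). Its KO DX arrays were close together and its groups did not overlap. With the chip as a block, the changes were 3.31 for Ppbp and 2.99 for Cxcl2, at adjusted p values in limma of 0.49 and 0.49.

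Pf4, platelet factor 4, which megakaryocytes and some macrophages make, was at 12.53 and 11.89 with DX and 10.88, 10.60 and 11.10 with PBS. The groups did not overlap, and the change of 1.35 (SE 0.31) had an adjusted p in limma of 0.395. Cxcl1, the close relative of Cxcl2 with the same motif in its promoter, was at 11.42 and 11.12 against 10.95, 10.80 and 11.05, a change of only 0.33 (SE 0.17, adjusted p in limma 0.958). Its KO PBS arrays lay above the WT PBS arrays, which were at 9.84, 9.53 and 9.40, with WT PBS 2 at 9.53. Cxcr1, a receptor for such chemokines, was detected on both KO DX arrays and on 0 of 3 KO PBS arrays, and was at least 1.33-fold higher with DX (adjusted p in limma 0.463). Il1b, an inflammatory cytokine, was at 11.82 and 11.50 against 11.27, 11.69 and 11.62, with overlapping groups. Of the 13 measured genes of the CXC chemokine and neutrophil attraction list, 7 were higher and 0 were lower at unadjusted p under 0.05, beside 3.15% and 2.2% of all genes. The groups did not overlap for 9 of the 13, all higher, beside 13.3% of all genes wholly higher and 13.7% wholly lower. Of the list, Cxcr1 and Il6 were detected on 0 of 3 KO PBS arrays. The list's median was 0.73, or 0.65 with the chip as a block. In a whole tumour, more cells of a type and more RNA per cell cannot be told apart, here and in every marker list below.

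**Figure D2:**
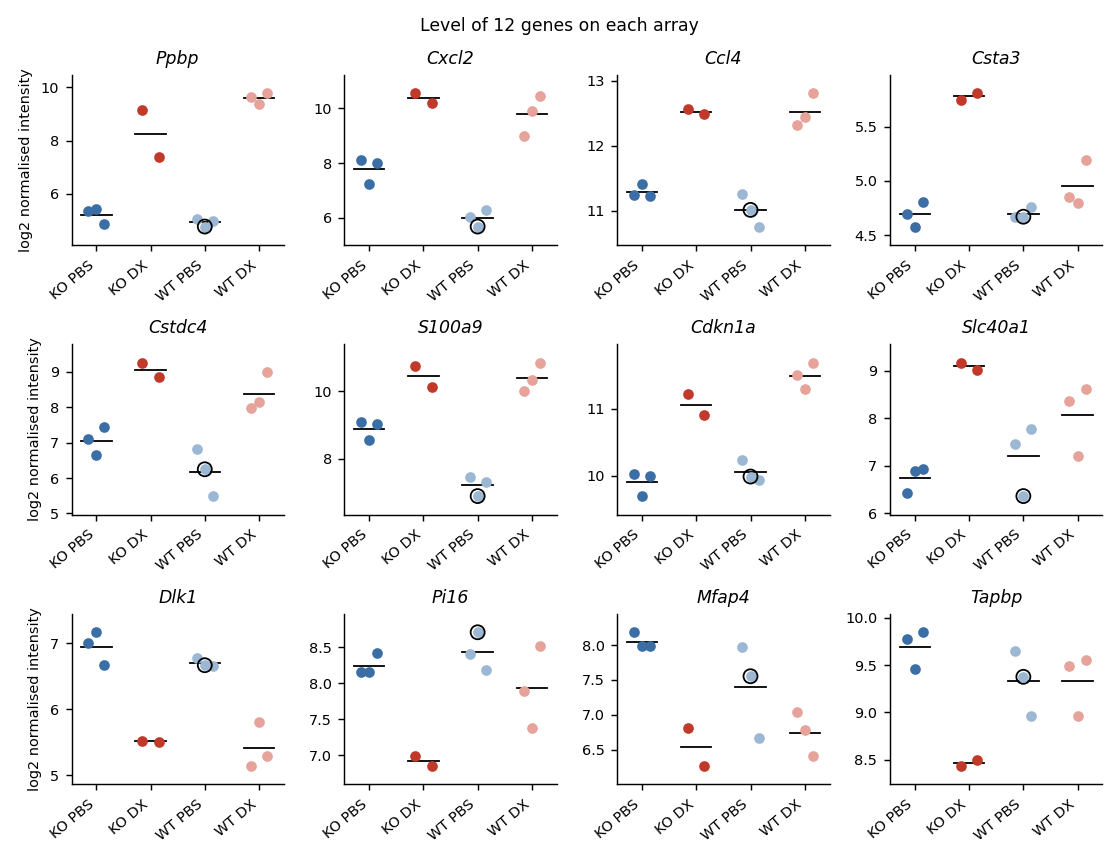
Level of 12 genes on each of the 11 arrays (y axis of each panel, log2 normalised intensity), by group on the x axis; dots are arrays, bars are group means, and the ringed dot is WT PBS 2, which shares chip 4 with both KO DX arrays. For each of the 12 genes the 2 KO DX arrays lie wholly above or wholly below the 3 KO PBS arrays, as for Ccl4 at 12.56 and 12.49 against 11.24, 11.41 and 11.22.

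Among CC chemokines whose groups did not overlap, Ccl3 and Ccl4 had the largest changes. Ccl4, made by activated macrophages and lymphocytes, was at 12.56 and 12.49 on the KO DX arrays and at 11.24, 11.41 and 11.22 on the KO PBS arrays. The KO PBS arrays had an SD of 0.10, and the change of 1.24 (SE 0.19) had an adjusted p in limma of 0.0726. Ccl3, its neighbour on chromosome 11, was at 9.30 and 9.41 against 8.24, 7.70 and 7.99, a change of 1.38 that was 2.21 with the chip as a block. Ccl9, a myeloid attractant, differed by 0.83 (SE 0.22) without overlap. Ccl2, the main attractant of monocytes, did not separate: it was at 11.79 and 12.10 against 11.88, 11.76 and 12.10, a change of 0.032 with an interval of -0.52 to 0.59, and of -0.64 with the chip as a block. Ccl19, which draws lymphocytes and mature dendritic cells, was dim throughout and lower by the fit, at -0.63. Of 15 measured genes of the CC chemokine and receptor list, 4 were higher and 1 lower at unadjusted p under 0.05. Among all genes, 3.15% were higher and 2.2% lower. The list's median of 0.36 was 0.047 with the chip as a block.

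Chemokines that attract T cells stood slightly the other way. Cxcl9, induced by interferon gamma, lay at 12.90 and 12.59 with DX and at 13.69, 13.01 and 13.41 with PBS; the groups did not overlap, but the change of -0.62 (SE 0.41) had an adjusted p in limma of 0.964. Cxcl10 was near its level with PBS, at 13.34 and 13.27 against 13.12, 13.11 and 13.34, and its change of 0.12 was -0.49 with the chip as a block. Cxcl16, a scavenger receptor and chemokine in one protein, was at 11.01 and 10.82 against 11.22, 11.53 and 11.37. Of 7 measured genes of this list, 0 were higher and 1 was lower at unadjusted p under 0.05. Among all genes, 3.15% were higher and 2.2% lower, and the list's median was -0.32.

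Neutrophil genes made up the list with the highest median of all 33, 0.89, against -0.0063 for all genes. Of its 17 measured genes, 12 were higher and 0 lower at unadjusted p under 0.05, beside 3.15% and 2.2% of all genes. The groups lay apart for 13 upward and 1 downward, beside 13.3% and 13.7% of all genes. This list too was chosen with earlier results of these data known, so these shares are not independent support. The stefins are small inhibitors of cysteine proteases found in mouse neutrophils. Csta3 was detected on both KO DX arrays, at 5.75 and 5.81, and on 0 of the 3 KO PBS arrays, at 4.70, 4.58 and 4.81, so it was at least 1.3-fold higher with DX (adjusted p in limma 0.0726). It was also detected on none of the 6 WT arrays, so it passed the probe filter only through the KO DX arrays. Its p-value and its place among the 12 higher genes are therefore not independent support. Its KO DX levels lay close to the lowest detected signals on those arrays, 5.29 and 5.33. Cstdc4, a relative on chromosome 16, was at 9.26 and 8.85 against 7.10, 6.64 and 7.43, a change of 2.00 (SE 0.39); members of this family are near-identical copies, so their probes may share signal.

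S100a8 and S100a9 code for the 2 chains of calprotectin, a metal-binding protein that fills the neutrophil cytosol. S100a9 was at 10.76 and 10.13 on the KO DX arrays and at 9.08, 8.56 and 9.03 on the KO PBS arrays, a change of 1.56 (SE 0.28, adjusted p in limma 0.213). S100a8 was at 10.82 and 10.17 against 9.36, 9.35 and 9.20, a change of 1.19 (SE 0.28). Both genes had groups that did not overlap, and both were far lower on WT PBS 2, at 6.89 and 7.09. With the chip as a block the changes were 1.99 and 1.72. Hdc, which makes histamine and is expressed in neutrophils, basophils and mast cells, was at 10.92 and 10.16 against 9.51, 9.82 and 9.35, a change of 0.98. The list's mean deviation from the 11-array mean was 0.88 on KO DX 1 and 0.44 on KO DX 2, and between -0.20 and -0.088 on the KO PBS arrays. Its median stayed between 0.59 and 1.03 when each KO array was left out in turn.

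**Figure D3:**
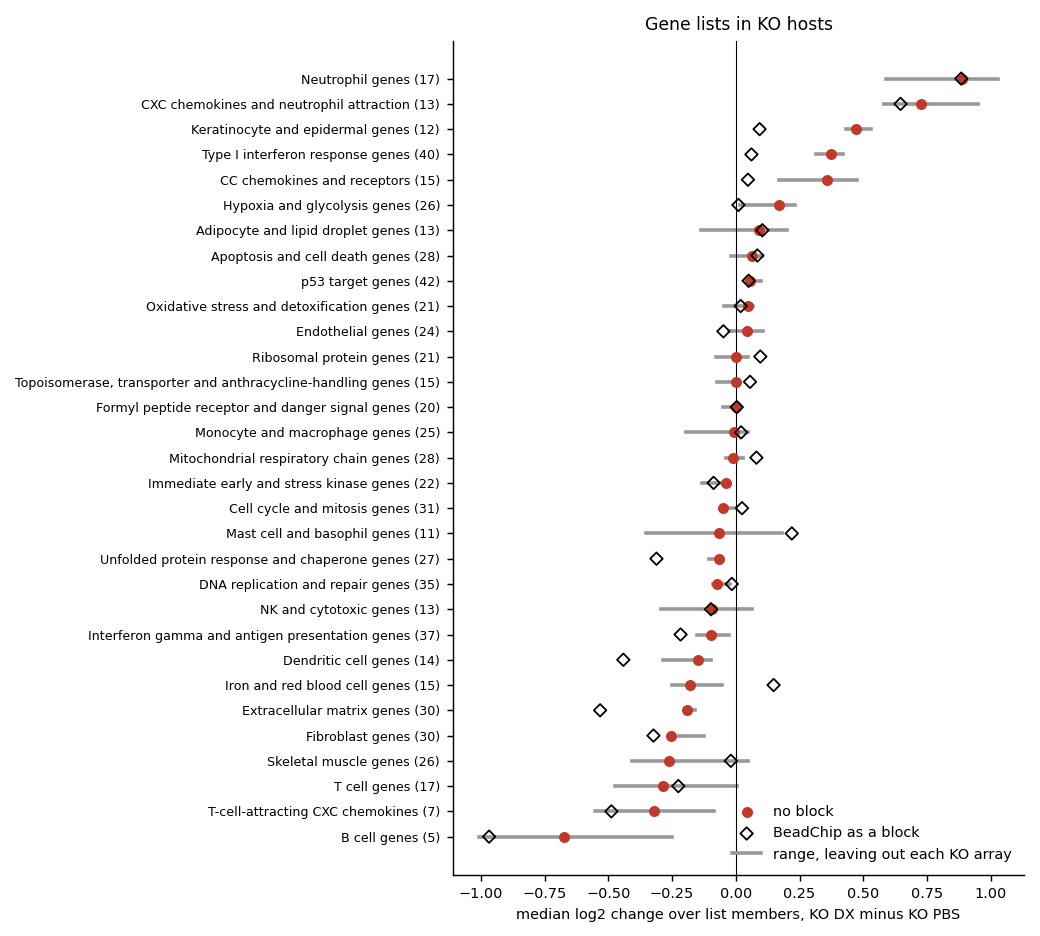
Median change of each gene list, KO DX minus KO PBS (x axis, log2), with the number of measured genes in brackets; red dots are without a block, open diamonds with the BeadChip as a block, and grey bars the range when each KO array is left out. The neutrophil list stands highest at 0.89 and the B cell list lowest at -0.68; lists of 1 eosinophil gene and 3 sex-linked genes are not drawn.

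Lists of other immune cells had medians near that of all genes or below it. The monocyte and macrophage list of 25 genes had a median of -0.0076, with members on both sides. Chil3, a lectin of alternatively activated macrophages and neutrophils, was at 10.14 and 9.29 against 8.83, 8.78 and 8.31, a change of 1.07, and Plac8, a marker of inflammatory monocytes, differed by 0.61. On the other side stood C1qa and C1qc, chains of complement C1q made by resident macrophages, at -0.53 and -0.51, each without overlap. The list had 2 genes higher and 4 lower at unadjusted p under 0.05, beside 3.15% and 2.2% of all genes.

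Among lymphocyte genes, Cd3e, a chain of the T cell receptor complex, lay at 8.02 and 6.98 with DX and at 8.16, 8.76 and 7.58 with PBS; the groups overlapped. Tnfrsf9, a costimulatory receptor of activated T cells, stood apart from its list at 0.87 (SE 0.27). The T cell list of 17 genes had a median of -0.28 and the natural killer list of 13 genes one of -0.093. Clec2d, a ligand of a natural killer receptor, was at 7.22 and 7.21 against 8.13, 7.47 and 7.41, a change of -0.46. Cd79b, a chain of the B cell receptor, was at 5.63 and 5.58 against 6.37, 8.03 and 6.52, a change of -1.37 (SE 0.40). WT PBS 2, without drug, also lay below every KO PBS array for Cd79b. KO PBS 2 was by far the highest of the 5 arrays for Cd79b, and for the B cell list of 5 genes its mean deviation was 1.12 against -0.18 and 0.20 on the other two. Without KO PBS 2 the median of that list went from -0.68 to -0.25. The dendritic cell list had 0 of 14 genes past unadjusted p 0.05, beside 5.36% of all genes, and a median of -0.15. Itgax, the CD11c gene, was at 5.66 and 5.89 against 5.90, 5.54 and 5.76. With the block the dendritic cell median was -0.44, and the change of Itgax went from 0.043 to -0.43.

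Type I interferon response genes were higher with DX in the fit without a block. Of 40 measured genes, 12 were higher and 0 lower at unadjusted p under 0.05, beside 3.15% and 2.2% of all genes. KO DX lay wholly above KO PBS for 29 and wholly below for 1, beside 13.3% and 13.7% of all genes, and the median was 0.37. Ifnb1, the interferon beta gene, was at 6.94 and 6.89 against 5.56, 5.72 and 5.65, a change of 1.27 (SE 0.30, adjusted p in limma 0.433). WT PBS 2, without drug, also lay above every KO PBS array for Ifnb1, and the change with the chip as a block was 1.09. Ifit1bl1, of the interferon-induced tetratricopeptide family, was at 8.48 and 8.56 against 7.46, 7.91 and 7.09, a change of 1.04. Slfn1, a growth regulator of the Schlafen family, differed by 0.99 without overlap.

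This list moved more with the chip block than the CXC chemokine and neutrophil lists. Rsad2, which codes for the antiviral enzyme viperin, was at 12.81 and 12.92 against 11.77, 12.07 and 12.09, but WT PBS 2 on the same chip, without drug, was at 12.29, above every KO PBS array. Cmpk2, its neighbour on chromosome 12, was at 10.996 and 11.32 against 10.19, 10.25 and 10.24, with WT PBS 2 at 11.07. With the chip as a block the changes of Rsad2 and Cmpk2 went from 0.90 and 0.93 to 0.43 and 0.20, and the list's median to 0.061. Mx1, an antiviral GTPase named here after its values were seen, went from 0.88 to -0.41. Slfn1 and Ifit1bl1 were at 1.13 and 0.83 under the same block. Genes of antigen presentation, many of them induced by interferon gamma, did not follow, with a median of -0.097. Of 37 measured, 0 were higher and 2 lower at unadjusted p under 0.05, beside 3.15% and 2.2% of all genes. Cd74, the class II invariant chain, was at 12.50 and 11.87 against 12.56, 13.11 and 12.62, a change of -0.58 that was -0.34 with the block, and Ifng itself was at 7.27 and 6.61 against 7.11, 6.62 and 6.87.

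The p53 arrest gene Cdkn1a, which codes for the cyclin-dependent kinase inhibitor p21, was at 11.21 and 10.91 on the KO DX arrays and at 10.03, 9.70 and 10.00 on the KO PBS arrays. All 3 of its probes gave like changes, from 1.12 to 1.35, and the change was 1.16 (SE 0.18) and 1.26 with the chip as a block. The p53 target list was spread around 0, with a median of 0.057. Of 42 measured, Cdkn1a included, 6 were higher and 3 lower at unadjusted p under 0.05, beside 3.15% and 2.2% of all genes. Trp53inp1, a p53-induced stress protein, differed by 0.64, and Mdm2, the ubiquitin ligase that limits p53, by 0.25 (SE 0.20). Trp53i11 and Ptp4a3 stood at -0.66 and -0.57. Pmaip1, which codes for the death activator Noxa, differed by 0.68 with overlapping groups. Under the chip block the changes were 0.99 for Trp53inp1, 0.75 for Mdm2 and 0.30 for Pmaip1.

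Of 31 cell cycle genes, 0 passed unadjusted p 0.05 in either direction, near the 5.36% of all genes, with a median of -0.049. Top2a, the proliferation-linked target of the drug, was at 11.79 and 11.79 against 11.78, 11.89 and 11.73, a change of -0.0099 with an interval of -0.35 to 0.33. Top2b, the isoform of resting cells, was at 6.74 and 7.198 against 7.23, 6.44 and 7.05, a change of 0.064 that was -0.79 with the block. Among 35 replication and repair genes, Fanca, of the crosslink repair complex, stood at 0.86 and Mcm2, a subunit of the replicative helicase, at -0.34. The topoisomerase, transporter and anthracycline-handling list had 0 of 15 genes past unadjusted p 0.05, beside 5.36% of all genes.

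Slc40a1, which codes for ferroportin, the iron exporter of macrophages and gut cells, was at 9.17 and 9.01 with DX and at 6.43, 6.89 and 6.92 with PBS. Its change, the largest after those of Ppbp and Cxcl2, was 2.34 (SE 0.44, adjusted p in limma 0.213). WT PBS 2 was at 6.36, and with the chip as a block the change was 3.48 at an adjusted p in limma of 0.0245, the only gene past the threshold in that fit (0.00941% called). Hmox1, the haem-degrading enzyme that also answers oxidative stress, was at 11.12 and 10.08 against 9.66, 8.87 and 9.30, a change of 1.32 in which KO DX 2 lay close above KO PBS 1. Tfrc, the transferrin receptor that takes up iron, was at 11.52 and 11.26 against 12.01, 12.03 and 12.17, a change of -0.68 and of -0.81 with the block. The haemoglobin genes Hba-a1, Hbb-bs and Hbb-bt, named after their values were seen, stood at -0.90, -0.74 and -0.82, and at 0.60, 0.58 and 0.30 with the block, so their direction turned. Among 21 oxidative stress genes, Cat, the catalase gene, stood at -0.70 with overlapping groups (-1.25 with the block) and Gss, the last enzyme of glutathione synthesis, at -0.53.

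Of the fibroblast genes, Dlk1 had the smallest adjusted p in limma and Mfap4 the largest change. Dlk1, a Notch-like protein of preadipocytes and some fibroblasts, was at 5.53 and 5.51 on the KO DX arrays and at 7.01, 7.17 and 6.67 on the KO PBS arrays. The KO DX arrays had an SD of 0.013, and the change was -1.43 (SE 0.20, adjusted p in limma 0.0726) and -1.40 with the chip as a block. Those KO DX levels lay close to the lowest detected signals on the same arrays, 5.29 and 5.33, so their SD says little about the spread. Pi16, a marker of a progenitor-like fibroblast state, was at 6.999 and 6.86 against 8.16, 8.15 and 8.42, a change of -1.32. Mfap4 and Mfap5, microfibril proteins of elastic fibres, stood at -1.51 and -0.91, again without overlap. WT PBS 2, without drug, lay below every KO PBS array for Dlk1 and Mfap4, and above every one for Pi16. Of 30 measured fibroblast genes, 0 were higher and 5 lower at unadjusted p under 0.05, beside 3.15% and 2.2% of all genes. Of the same 30, 1 lay wholly higher and 11 wholly lower, beside 13.3% and 13.7% of all genes, and the median was -0.25.

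Matrix genes divided. Col1a1 stood at -0.60 (SE 0.19), Col15a1, a basement membrane collagen, at -0.77 and Tnc, the matrix protein tenascin C, at -0.76, or -1.33 with the block. Mmp12, the elastase of macrophages, stood on the other side at 0.75. In all, 4 of 30 matrix genes were higher and 5 lower at unadjusted p under 0.05, beside 3.15% and 2.2% of all genes. The list's median was -0.19 and, with the chip as a block, -0.53. The 4 probes of Tnc ran from -0.76 to -0.21.

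Other genes among the 12 highest and 12 lowest had less in common. Fam71f2, of which no role is given here, was at 6.92 and 6.52 against 5.35, 4.94 and 5.39, a change of 1.49. Hcar2, the niacin receptor of macrophages, neutrophils and adipocytes, was at 8.66 and 8.34 against 7.26, 7.27 and 6.99. 3110040M04Rik was detected on both KO DX arrays and on 0 of 3 KO PBS arrays, at least 2.4-fold higher, but its KO DX arrays lay far apart, at 7.94 and 5.40. WT PBS 2 lay above every KO PBS array for this gene. Of the lower genes, Tapbp, the peptide-loading factor tapasin, was at 8.44 and 8.50 against 9.78, 9.46 and 9.85, a change of -1.23 (SE 0.23), while its other probe gave -0.17. For Tapbp, WT PBS 2 lay below every KO PBS array. Dus4l, a tRNA dihydrouridine synthase gene, stood at -1.08 and at -0.44 with the chip as a block, WT PBS 2 lying below all KO PBS arrays.

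Probes of a gene also disagreed for Man1c1, a Golgi mannosidase, whose probes gave -1.21 and 0.044, and for Ap2b1, a subunit of the clathrin adaptor, whose 4 probes ran from -1.63 to -0.043. Reg1, a secreted lectin of the regenerating family, was at 6.94 and 5.71 against 7.72, 8.43 and 7.77, a change of -1.64. Cxcl13, the B cell attractant, was at 5.96 and 5.64 against 6.93, 6.89 and 8.08, a change of -1.50. WT PBS 2 lay below every KO PBS array for Cxcl13 and Ap2b1, and within their range for Reg1. C6, a complement component, and Prpf31, a splicing factor, were detected on 0 of 2 KO DX arrays and on 3 of 3 KO PBS arrays, and were at least 1.95-fold and 1.61-fold lower with DX.

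For tissue around a tumour, the skeletal muscle list had 0 of 26 genes past unadjusted p 0.05, near the 5.36% of all genes, and a median of -0.26, or -0.020 with the chip as a block, with mean deviations of -0.28 and -0.76 on the KO DX arrays and of -0.37 to -0.26 on the KO PBS arrays. The endothelial list, with 0 of 24, was near that share too. The keratinocyte list had a median of 0.47 and of 0.093 with the block, and only Krt16, a stress keratin, passed unadjusted p 0.05, at 7.38 and 7.46 against 6.603, 6.22 and 6.34. In the adipocyte list Plin2, the coat protein of lipid droplets in many cells, was at 9.89 and 9.81 against 9.09, 8.91 and 9.06, a change of 0.83 (SE 0.15, adjusted p in limma 0.213), while Adipoq, the adipocyte hormone adiponectin, overlapped between groups at 0.66.

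In the hypoxia list, Car9, a carbonic anhydrase, was at 8.45 and 8.59 against 7.80, 6.65 and 8.20 and Bnip3l, a mitophagy receptor, differed by 0.55; the median of 0.17 was 0.010 with the block. Klf6 and Dusp1, an early transcription factor and a kinase phosphatase, stood at 0.60 and 0.52, and Egr3, another early factor, at -0.63, or -1.09 with the block. The unfolded protein response list had 0 of 27 genes past unadjusted p 0.05, beside 5.36% of all genes. Calr, the calreticulin gene, was at 11.02 and 10.92 against 10.96, 11.29 and 11.25. The list of formyl peptide receptor and danger signal genes had 0 of 20 past unadjusted p 0.05, beside the same share of all genes. Fpr2, the receptor's relative, differed by 0.093 and Anxa1, the ligand gene, by -0.026, with intervals of -0.59 to 0.78 and -0.50 to 0.45.

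Genes under unadjusted p 0.05 in KO hosts stood the same way in WT hosts more often than all genes did. No gene passed the threshold for a difference between the KO and the WT change (0% called), while 498 genes (4.69%) lay under unadjusted p 0.05. Of the 335 genes higher in KO hosts at unadjusted p under 0.05, 237 (70.7%) were higher in WT hosts, beside 45.0% of all genes. Of the 234 lower ones, 169 (72.2%) were lower, beside 55.0%. All arrays share 1 spread in the fit. The groups are separate samples, but KO and WT arrays shared chips, as KO PBS 1 and WT DX 1 did on chip 1. The KO and WT changes are therefore not independent, and the part of the chips was not tested. The larger changes differed by direction. Of the 33 genes at least 2-fold higher without overlap, 26 (78.8%) were higher in WT hosts. Of the 14 at least 2-fold lower without overlap, 5 (35.7%) were lower there and 9 (64.3%) were higher. Those 9 WT changes ran from 0.0054 for Tapbp to 1.27 for Cd209f, and some were near 0, as C6 at 0.086. WT PBS 2, on the chip of the KO DX arrays, lay below every KO PBS array for Tapbp and above every one for C6 and Cd209f. Ppbp was detected on 0 of 3 WT PBS arrays and was at least 18.1-fold higher with DX in WT hosts. The changes in WT hosts were 3.79 for Cxcl2, 1.52 for Ccl4, 1.44 for Cdkn1a and -1.29 for Dlk1. The differences, KO minus WT, for Dlk1, Ccl4 and Cdkn1a were -0.15, -0.28 and -0.29, with intervals of -0.75 to 0.46, -0.83 to 0.26 and -0.81 to 0.24.

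Calprotectin and Cxcl1 had smaller changes in KO than in WT hosts before adjustment. The difference, KO minus WT, was -1.62 for S100a9, -1.54 for S100a8 and -1.36 for Cxcl1, at unadjusted p values in limma of 0.00138, 0.00199 and 0.000107 and adjusted ones of 0.639, 0.639 and 0.567. For these 3 genes the KO PBS arrays started high: S100a9 was at 9.08, 8.56 and 9.03 there and at 7.45, 6.89 and 7.30 on the WT PBS arrays. The smallest adjusted p of any difference, 0.11, belonged to Clec2d, which stood at 1.56 in WT hosts and at -0.46 in KO hosts. Slc40a1 stood on the other side, with a WT change of 0.87 and a difference of 1.48 at an adjusted p in limma of 0.992. Csta3 was not above background on any WT array, so its WT change has no value. The muscle list's median was 1.23 in WT hosts against -0.26 in KO hosts; its part in the other WT changes was not tested.

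**Figure D4:**
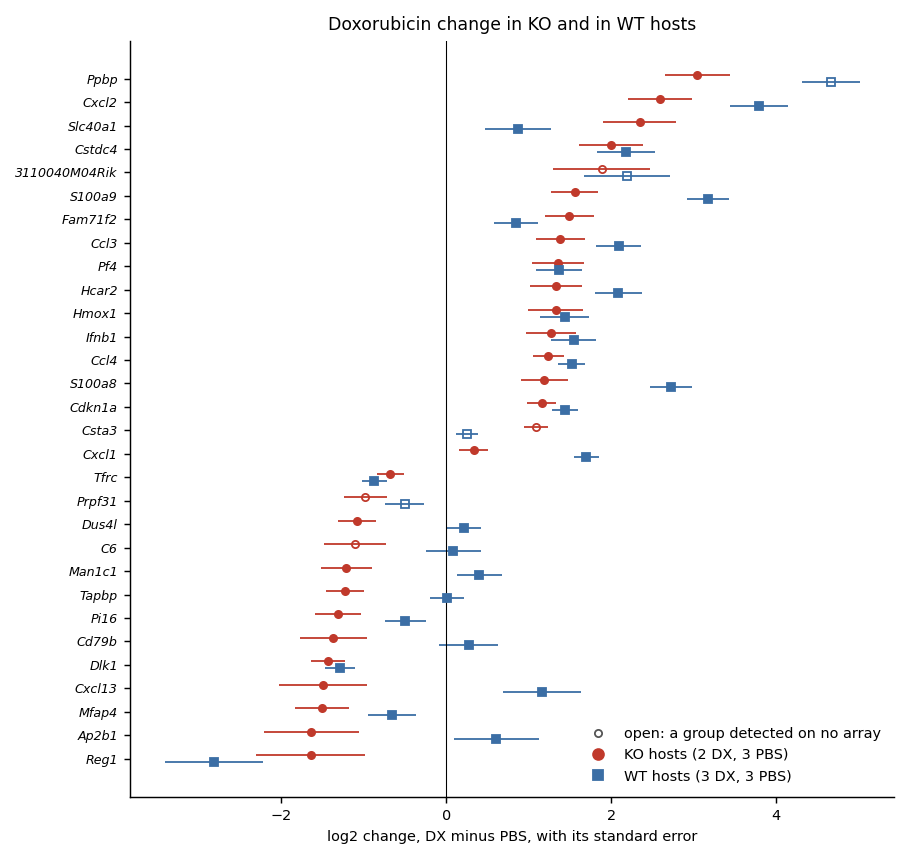
Change with doxorubicin in KO hosts (red dots, 2 DX and 3 PBS arrays) and in WT hosts (blue squares, 3 and 3 arrays) for 30 named genes; the x axis is log2, DX minus PBS, and the bars are standard errors from limma. Open symbols mark fitted values of genes detected on no array of 1 or both groups, as for Ppbp in WT hosts, and Slc40a1 lies at 2.34 and 0.87.

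Since both KO DX arrays shared chip 4, every gene was also fitted with the chip as a block, and values from that fit stand beside many of the genes and lists above. Of the 335 higher genes 324 (96.7%) and of the 234 lower genes 226 (96.6%) had the same sign with the block, beside 67.6% of all genes; these fits use the same KO arrays and are not independent. WT PBS 2 lay above all KO PBS arrays for 50.7% of the 335 higher genes and for 24.5% of all genes, and below them for 65.4% of the 234 lower genes and 30.1% of all genes. WT PBS 1 and WT PBS 3, on other chips, lay above all KO PBS arrays for 53.7% and 43.0% of the higher genes. Among all genes, the shares above were 33.3% and 25.96%. The same arrays lay below all KO PBS arrays for 53.4% and 55.1% of the lower genes, and for 29.5% and 24.7% of all genes. All these shares use the KO PBS arrays that also chose the genes, so they describe the arrays and are no test.

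**Figure D5:**
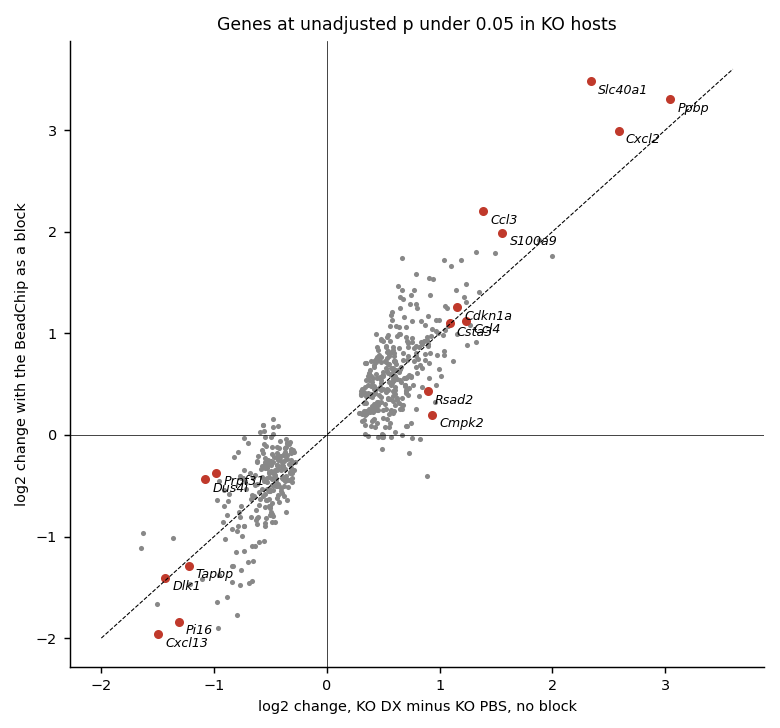
Change of the 569 genes at unadjusted p under 0.05 without a block (x axis, log2, KO DX minus KO PBS) against the change with the BeadChip as a block (y axis, log2); red points are named examples, Csta3 and Prpf31 with fitted values although 1 group was detected on no array, and the dashed line marks equality. Slc40a1 moves from 2.34 to 3.48, and Cmpk2 from 0.93 to 0.20.

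The authors' deposited log2 table gives far more calls and was set against the scanner values. Its KO changes matched those of quantile-normalized log2 intensities with the chip as a block at r = 1 over 19215 probes, with a largest difference of 0.00465, and those without a block at r = 0.562 (both across probes, which are not independent). Its columns for WT DX 2 and WT PBS 2 equalled the means of the other 2 arrays of their groups, within 0.001. Taking chip effects out with the groups kept places both columns there by design. WT DX 2 was alone on chip 3, and WT PBS 2 shared chip 4 only with the KO DX arrays, which lay on no other chip. The median SD of the KO PBS replicates in that table was 0.0724, against 0.106 before the chip effects were taken out. Tested as deposited, with 7 residual degrees of freedom, the table gave 5153 genes past the threshold in limma; with the 3 degrees of freedom that the chips leave, it gave 1, Slc40a1.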

How the data were processed

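Tumour RNA was measured as biotin-labelled amplified RNA on Illumina mouse bead arrays, 1 per sample; samples were grouped by the genotype and treatment labels. Per the file headers, the authors deposited scanner intensities that were not normalized, with a detection p-value for each probe, and a table of log2 values; Partek is the only tool the submitters' processing notes name, and the genome build is not given in the sources used here. The intensities were background-corrected, quantile-normalized and put on the log2 scale with neqc in limma 3.58.1 (R 4.3.3, offset 16) over 11 arrays. A probe was kept if 2 or more arrays detected it (p under 0.05), which held for 20433 of 45281. The probe table named 16496 probes with 1 gene symbol and 9 with several, and 16479 symbols were updated by Entrez number. The brightest probe stood for each of 10623 genes, 3874 of which had several probes. Levels of different probes were set against each other only for that choice and for the "at least N-fold" values described below.

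Limma was fitted to the 4 groups without a block (7 residual and 4.04 prior degrees of freedom) with Benjamini-Hochberg adjustment over all genes, and its code was tested on simulated data. The number of arrays limits the precision: an exact permutation test of 2 against 3 arrays cannot go below p = 0.2. For a gene detected on no array of 1 group, "at least N-fold" sets the bright group's mean against, per array of the dim group, the higher of the lowest signal of any probe detected there and the gene's own. Alternatives changed the background correction, scaling, arrays used, probe filter, probe per gene, chip, replicate number, array weights and variance prior.

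The members and the 33 gene lists were chosen with earlier results of these data known. Named genes were the 12 highest and 12 lowest among genes at unadjusted p under 0.05 without overlap, all at the smallest adjusted p, the 4 members of each list with the smallest p, and a set of genes tied to the drug and the receptor. Chosen after their values were seen were the promoters, 14 genes (Retnla, Ptbp2, Kcnq1ot1, Pou5f2, Wdfy3, Trps1, Tmem164, Kcnq5, Hba-a1, Hbb-bs, Hbb-bt, Mx1, Il6 and Ccl24), and 3 alternatives, which are named as such below.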

Additional observations from a re-analysis of the deposited data

Results flagged for a closer look

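A probe without a gene name stood out among the probes that entered no comparison above. ILMN_1258785 was at 6.80 and 6.70 on the KO DX arrays and at 5.04, 5.41 and 4.91 on the KO PBS arrays, a log2 change of 1.63 (SE 0.23) at an adjusted p in limma of 0.0351 among 4181 unnamed probes. It was the only 1 of them past the threshold, and over all kept probes its adjusted p was 0.0513. WT PBS 2, on the chip of the KO DX arrays, was at 6.49, and the other WT PBS arrays were at 6.10 and 6.15, all above the KO PBS arrays. The WT DX arrays were at 5.07, 5.34 and 4.70. With the chip as a block the change was 1.28, at an adjusted p in limma of 0.643.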

How the results depend on the processing

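No gene passed the threshold in the fit reported above, and the count was 0 with no probe filter, a stricter filter, every probe, a random chip block, the replicate block and without 2 WT arrays with signal of the Y-linked Eif2s3y (chosen after seeing the data). It was 3 without background correction, 4 with median scaling, 1 in both fits of the 5 KO arrays alone, 2 with the mean of probes, 1 with a fixed chip block, 28 with array weights and 6 with a trend and robust prior, and 0 to 2 when each array was left out. Those 2 were Ppbp and Ccl24 without KO DX 2, and Cxcl2 and Dlk1 passed without WT DX 1 and WT DX 2. In the authors' deposited table it was 5153, and, as alternatives chosen after seeing the data, 3584 with its KO columns only and 1 with the chip as a block, where the chips leave fewer degrees of freedom. Genes at unadjusted p under 0.05, 569 above, numbered 154 with median scaling (90.9% higher, beside 58.9%), 954 and 963 in the fits of KO arrays alone, 961 over every probe, 985 with a fixed chip block, 1214 with array weights, 308 to 730 when each array was left out, and 5942, 4851 and 1081 in the authors' table as is, KO columns only and blocked. The lowest counts came without KO DX 1 (308) and KO DX 2 (367). The difference between genotypes, 0 genes above, had 6001 in the authors' table, 3 there with the block, 2 with array weights, 2 with a trend and robust prior and 0 to 1 when each array was left out. Whether the replicate numbers pair the samples was not settled. Deviations of same-numbered arrays from their group means correlated between -0.291 and 0.304, which cannot decide it with groups of 2 or 3 arrays. The replicate block gave 0 genes past the threshold and 486 at unadjusted p under 0.05. Median scaling moved the median of all genes to 0.17, so changes there are relative to it. Over the 27 alternatives Ppbp ranged from 1.36 to 3.92, Cxcl2 from 1.98 to 2.99, Cdkn1a from 1.00 to 1.34 and Dlk1 from -1.57 to -0.49. Without background correction the neutrophil and CXC medians were 0.44 and 0.29. Of 162 named genes, 31 turned direction under some alternative, most of them small changes; the cause was not tested. With the chip as a fixed block, and then in the authors' table in all 3 of its fits, the changes were Sprr1a -0.077 and -0.0075, Uqcrc1 0.23 and 0.22, Cidec -0.14 and -0.053, Ager 0.33 and 0.090, Uty 0.43 and 0.13, Top1mt 0.18 and 0.15, Mrgprb2 0.25 and 0.074, Rpl30 0.024 and 0.025, Top3b 0.071 and 0.044, Cxcl10 -0.49 and -0.48, Top2b -0.79 and -0.42, Itgax -0.43 and -0.14, Ccl2 -0.64 and -0.63, Eif2s3y 1.94 and 0.89, Hba-a1 0.60 and 0.62, Hbb-bs 0.58 and 0.59, Hbb-bt 0.30 and 0.33, Mx1 -0.41 and -0.10 and Il6 -0.18 and -0.081. With a random chip block they were Top2b -0.063, Itgax -0.013, Ccl2 -0.045 and Eif2s3y 0.059. With array weights they were Ccl2 -0.00057 and Top2a 0.0048; with the mean of probes they were Rplp0 -0.059, Ifng -0.0031 and Top2a 0.35. With median scaling they were Cdk4 0.017, Top1mt 0.017, Rpl30 0.017, Top3b 0.035, Anxa1 0.16 and Top2a 0.16; in the 5 KO arrays normalized alone they were Melk -0.28; with the replicate block they were Top2a 0.014 and Eif2s3y 0.25. When each array was left out, the changes that turned ranged over -1.32 to 0.16 for Pvalb, -0.19 to 1.13 for Cidec, -0.80 to 0.13 for Cxcr3, -0.73 to 0.17 for Prg2, -0.023 to 0.30 for Il1b, -0.17 to 0.36 for Fpr2, -0.17 to 0.29 for Top2b, -0.26 to 0.41 for Ifng, -0.070 to 0.16 for Itgax, -0.13 to 0.19 for Ccl2, -0.21 to 0.18 for Anxa1, -0.043 to 0.034 for Top2a, -0.15 to 0.11 for Eif2s3y and -0.091 to 2.57 for Ccl24.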

Other observations

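Of the 33 genes that were 2-fold or more higher with DX in KO hosts without overlap, 7 stood lower in WT hosts, and they were named after their values were seen. Ptbp2, a splicing regulator of neurons, stood at 1.24 in KO and -0.22 in WT hosts, and Kcnq1ot1, an imprinted non-coding RNA, at 1.16 and -0.33. Pou5f2 was at 1.12 and -0.52, Wdfy3, an autophagy scaffold, at 1.10 and -0.32, and Trps1, a GATA-type repressor, at 1.06 and -0.40. Tmem164 was at 1.05 and -0.55, and Kcnq5, a potassium channel, at 1.02 and -0.48. For each of the 7, WT PBS 2, which shares the chip of the KO DX arrays, lay above all 3 KO PBS arrays. With the chip as a block the changes, in the same order, were 1.49, 0.99, 0.73, 1.66, 1.25, 1.03 and 0.58. Other probes of Trps1 and Tmem164 gave changes down to -0.019 and 0.058.

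Ccl24, an eosinophil attractant, rests on 1 array: it was at 7.40 on KO DX 1 and 4.74 on KO DX 2, against 5.21, 4.55 and 4.74 on the KO PBS arrays, where it was detected on 0 of 3. Il6, an inflammatory cytokine of the CXC and neutrophil attraction list, was detected on both KO DX arrays and on 0 of 3 KO PBS arrays, at least 1.42-fold higher, and its fitted change turned direction with the chip as a block.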
